A study of Mus musculus with 8 samples.

Results

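The 10 genes described here encode transcription factors that maintain the pluripotent state of embryonic stem cells, namely Pou5f1, Sox2, Nanog, Klf2, Klf4, Klf5, Esrrb, Tfcp2l1, Zfp42 and Prdm14. They were chosen by name, and all 10 were found among the 21883 protein-coding genes that RefSeq places on chromosomes 1 to 19, X and Y of the mouse build GRCm38.p6. Mouse spermatogonial stem cells in culture were profiled by ChIP-seq (sequencing of immunoprecipitated chromatin) for H3K79me2, histone H3 dimethylated at lysine 79. Treated cultures received EPZ5676, which blocks the H3K79 methyltransferase DOT1L, at 2 µM over 7 days, and control cultures received vehicle, which is DMSO in the protocols but ethanol in the short sample descriptions. Testes of pups aged 7 days, of the strain B6.129S7-Gt(ROSA)26Sor/J with LacZ in every tissue, supplied the cells of both groups. The cells had been kept for 2 months on SNL 76/7 feeder cells, with GDNF at 10 ng/mL and FGF2 at 0.5 ng/mL and without serum. SNL cells are mouse fibroblasts that carry a LIF transgene, and the protocols name no step that removed them before fixation.

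Of the 8 samples, 2 each were EPZ5676 H3K79me2, EPZ5676 input, control H3K79me2 and control input. Only 2 lists of H3K79me2 peaks were used, 1 per condition, so values carry no replicate error and the conditions could not be tested against each other. The sources used here do not say whether a list rests on 1 sample or on pooled samples, and the read depth is unknown. The EPZ5676 list held 9182 peaks over 4.64 Mb and the control list 47774 peaks over 168.9 Mb. The cell label was checked against markers: of 14 genes of spermatogonial stem cells, 2 had an EPZ5676 peak and 14 a control peak, and of 12 genes of fibroblasts, 4 had an EPZ5676 peak and 9 a control peak. Over all protein-coding genes 12.3% had an EPZ5676 peak and 52.7% a control peak. Markers of both the spermatogonial and the feeder cells thus had control peaks.

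H3K79me2 lies over the early part of transcribed genes and is laid down by DOT1L, which travels with elongation factors behind RNA polymerase II. POU5F1 and SOX2 bind DNA together and, with NANOG, form the centre of the pluripotency network. KLF2, KLF4, KLF5, ESRRB and TFCP2L1 support it, some of them downstream of LIF or Wnt signals. PRDM14 holds back differentiation and is needed for primordial germ cells, and ZFP42, also called REX1, is a marker of naive pluripotency. Cultured spermatogonial stem cells are known to transcribe Pou5f1 without being pluripotent, and Nanog is not normally active in them.

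The sequence before the start is shown for 2 genes with a control peak (Klf4 and Sox2) and 2 without one (Nanog and Zfp42), to show CG-rich and CG-poor starts side by side. Each line gives the 250 bases before the first annotated start, 5′ to 3′ on the strand of the gene, from RefSeq GRCm38.p6, with every CG dinucleotide in capitals.
Klf4, chr4:55532476-55532725, minus strand: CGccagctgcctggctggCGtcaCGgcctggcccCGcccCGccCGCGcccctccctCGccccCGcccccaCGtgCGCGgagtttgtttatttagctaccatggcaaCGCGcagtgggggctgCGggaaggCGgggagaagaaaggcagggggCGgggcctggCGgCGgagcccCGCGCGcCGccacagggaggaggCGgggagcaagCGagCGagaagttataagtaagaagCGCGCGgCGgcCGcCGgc
Sox2, chr3:34649745-34649994, plus strand: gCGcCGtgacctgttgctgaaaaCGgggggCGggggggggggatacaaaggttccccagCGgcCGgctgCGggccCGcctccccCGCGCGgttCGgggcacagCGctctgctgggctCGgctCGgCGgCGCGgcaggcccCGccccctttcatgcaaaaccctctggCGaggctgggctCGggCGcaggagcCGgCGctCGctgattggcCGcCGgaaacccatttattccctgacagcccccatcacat
Nanog, chr6:122707239-122707488, plus strand: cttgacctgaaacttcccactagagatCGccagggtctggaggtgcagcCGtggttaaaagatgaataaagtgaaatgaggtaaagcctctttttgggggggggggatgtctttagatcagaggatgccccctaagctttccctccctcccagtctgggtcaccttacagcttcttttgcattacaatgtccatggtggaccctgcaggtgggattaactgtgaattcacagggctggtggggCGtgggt
Zfp42, chr8:43307010-43307259, minus strand: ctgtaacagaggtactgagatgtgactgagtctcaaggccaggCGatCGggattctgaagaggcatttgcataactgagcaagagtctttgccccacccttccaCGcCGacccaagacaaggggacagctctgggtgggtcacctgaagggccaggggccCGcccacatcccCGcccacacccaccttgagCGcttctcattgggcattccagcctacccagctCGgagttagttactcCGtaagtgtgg
CG dinucleotides numbered 32 in the Klf4 stretch, 27 in that of Sox2, 3 in that of Nanog and 9 in that of Zfp42.

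No peak of the EPZ5676 list covered any of the 10 genes, whereas 6 of them had a peak in the control list. The 6 were Pou5f1, Sox2, Klf2, Klf4, Klf5 and Tfcp2l1, and the 4 without a peak in either list were Nanog, Esrrb, Zfp42 and Prdm14. A single base of the gene span under a peak was enough to call the gene marked. Beside the 12.3% of all protein-coding genes with an EPZ5676 peak and the 52.7% with a control peak, the 6 of 10 lies near the background. In total 0 bp of the 10 genes was covered with EPZ5676 and 14619 bp in control cells, with a median per gene of 0 bp with EPZ5676 and 494 bp in control cells. Over all protein-coding genes the medians were 0 bp with EPZ5676 and 602 bp in control cells.

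EPZ5676 peaks were also rare over short genes, and over genes with few control-covered bases, in general. Of protein-coding genes up to 15 kb long, 1.72% had an EPZ5676 peak and 38% a control peak, and 8 of the 10 factor genes are that short, 5 of them with a control peak. All 6 marked genes had under 5000 bp of control coverage, as did 45.1% of the control-marked protein-coding genes. The whole spans of Pou5f1, Sox2 and Klf2 (4746, 2467 and 2593 bp) are shorter than that limit, so for them it restates gene length. Of the genes with 1 to 5000 bp of control coverage, 4.68% had an EPZ5676 peak, close to the 4.53% of genes with no control peak. Of all control-marked genes, 19.3% had an EPZ5676 peak. The limits of 15 kb and 5000 bp were chosen after the values of the 10 genes had been seen.

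**Figure D1:**
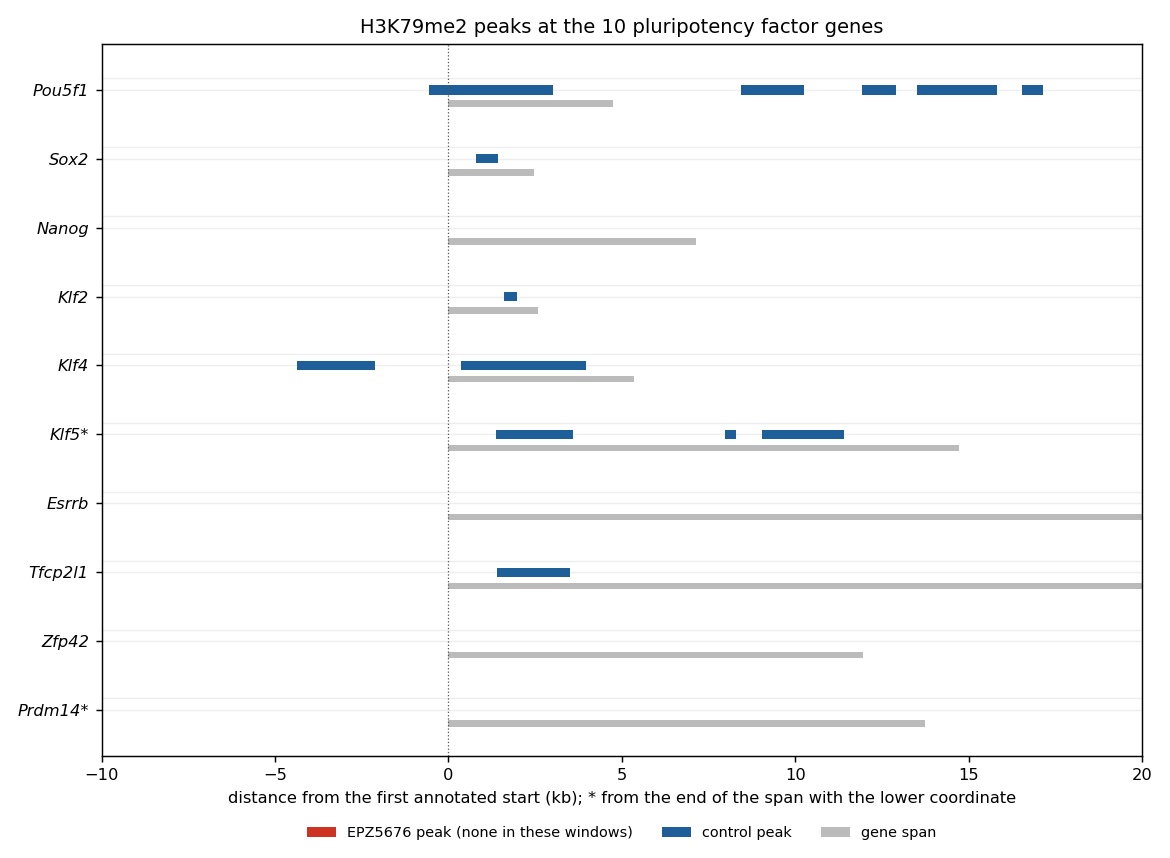
Peaks at the 10 genes, drawn by distance in kb from the first annotated start (for Klf5 and Prdm14, from the end of the span with the lower coordinate). Each gene has a row for EPZ5676 above a row for the control, with the gene span in grey below, running past the right edge for Esrrb and Tfcp2l1. All EPZ5676 rows are empty, and the 6 marked genes carry control peaks in the span, that of Pou5f1 reaching 568 bp upstream of it.

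Pou5f1, the OCT4 gene (chromosome 17, 35506032 to 35510777), had 0 bp covered with EPZ5676 and 3019 bp, or 63.6% of its span, in control cells. A single control peak of 3587 bp ran from 568 bp before the first start to 3018 bp after it. The peak had a deposited fold enrichment of 3.07, higher than 84.6% of the peaks in its list, and a −log10 q of 5.73. It covered both annotated starts of Pou5f1, and its upstream end reached into the lncRNA gene Gm32362. Pou5f1 was the only 1 of the 8 genes with an annotated start in the promoter table whose start lay under a control peak.

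Sox2, whose product partners with POU5F1 (chromosome 3, 34649995 to 34652461), had 0 bp covered with EPZ5676 and 617 bp, or 25.01%, in control cells. Its control peak began 811 bp after the start and ended at 1427 bp. With a fold enrichment of 2.08 and a −log10 p of 2.68 it was among the weak peaks, its p ranking above only 9.92% of the list. Sox2 lies wholly within the span of the lncRNA gene Sox2ot, so the peak cannot be assigned to Sox2 alone.

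The 3 Krüppel-like factor genes of the set ranged from the shortest to the longest control coverage. Klf4 (chromosome 4, 55527137 to 55532475), also a growth regulator of epithelia and fibroblasts, had 0 bp with EPZ5676 and 3608 bp in control cells. This was 67.6% of its span, under a single control peak that began 367 bp after the start and ended at 3974 bp. With a fold enrichment of 4.51 and a −log10 p of 15.8 it was the strongest peak over any of the 10 genes and stood above 94.6% of the control list by fold.

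Klf5 (chromosome 14, 99298691 to 99313412), which acts in the early embryo and in gut epithelium, had 0 bp with EPZ5676 and 4892 bp, or 33.2%, in control cells. Its 3 control peaks were 2219, 312 and 2361 bp wide, with fold enrichments of 2.56, 2.17 and 2.11. They began 1366, 7970 and 9047 bp from the end of the span with the lower coordinate. The tables used here do not give the strand of Klf5, so these are not distances from its start.

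Klf2 (chromosome 8, 72319062 to 72321654), a factor of naive pluripotency and of blood vessels, had 0 bp with EPZ5676 and 371 bp, or 14.3%, in control cells. Its only control peak lay 1612 to 1982 bp after the start, with a fold enrichment of 2.07 and a −log10 p of 2.83. By width it exceeded 15.6% of the control peaks.

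Tfcp2l1 (chromosome 1, 118627923 to 118685168), a target of LIF and STAT3 signalling, had 0 bp with EPZ5676 and 2112 bp in control cells. Because the gene is 57.2 kb long, this was only 3.69% of its span. The control peak lay 1406 to 3517 bp after the start, with a fold enrichment of 2.30 and a −log10 p of 3.60, close to the middle of its list, where the median fold was 2.30 and the median −log10 p 3.58. No other peak of either list lay in the remaining span.

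By covered bases in control cells the order was Klf5, Klf4, Pou5f1, Tfcp2l1, Sox2 and Klf2, and by share of the span it was Klf4, Pou5f1, Klf5, Sox2, Klf2 and Tfcp2l1. Without replicate lists, neighbours in either order cannot be called different. Among all control-marked genes, the covered bases of Klf5 stood above 44.5% and those of Klf2 above 2.46%. By share of the span, Klf4 stood above 84.5% and Pou5f1 above 81.7%. The 6 factor genes had a median of 2566 bp and 29.1% of the span covered, against 5857 bp and 32.6% for all control-marked genes. The whole spans of Sox2, Klf2, Pou5f1 and Klf4 (2467, 2593, 4746 and 5339 bp) are shorter than 5857 bp. Their covered bases therefore could not reach that median, and these comparisons were not adjusted for gene length.

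The genes most like the pair with the longest coverage, by gene length and control-covered bases among 7103 marked genes that overlap no other protein-coding gene and have no EPZ5676 peak, were as follows. For Klf5 they were Trafd1 (4888 bp), Vps4a (4877 bp) and Mettl2 (4770 bp). For Klf4 they were Egr3 (3580 bp), Med18 (3600 bp) and Pfdn5 (3700 bp). The likeness was the sum of absolute log2 ratios of both values, at most 0.046 for these 6, and each list contributes a single value.

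The 4 genes without a peak in either list lay in gaps of different size. The Nanog span (chromosome 6, 122707489 to 122714633) was 107.3 kb from the nearest EPZ5676 peak and 25.6 kb from the nearest control peak, which lay in Slc2a3, a glucose transporter gene. Prdm14 (chromosome 1, 13113428 to 13127163) was 127.2 kb from an EPZ5676 peak and 72.1 kb from a control peak, the one within Ncoa2, a nuclear receptor coactivator gene. Esrrb (chromosome 12, 86361117 to 86521628), an orphan nuclear receptor gene, was 283.9 kb from an EPZ5676 peak and 102.3 kb from a control peak, and neither list had a peak in any of its 160512 bp. Zfp42 (chromosome 8, 43295067 to 43307009) was 945.0 kb from an EPZ5676 peak and 112.1 kb from a control peak at Triml2. For comparison, autosomal protein-coding genes without a peak lay at a median of 155.3 kb from the nearest EPZ5676 peak and 66.7 kb from the nearest control peak.

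None of the 10 genes lay within 50 kb of an EPZ5676 peak. The share of all protein-coding genes within 50 kb of a peak was not computed, so this count has no background beside it. The nearest EPZ5676 peak lay 50.8 kb from Klf4, 90.7 kb from Klf2, 223.1 kb from Klf5, 226.4 kb from Sox2, 232.9 kb from Tfcp2l1 and 529.7 kb from Pou5f1. Over the 10 genes the median was 224.8 kb, against 122.5 kb over all autosomal protein-coding genes, which include genes under an EPZ5676 peak. Autosomal genes without an EPZ5676 peak, like these 10, had a median of 155.3 kb. In windows of 50 kb around the genes the control list had 5 peaks at Pou5f1, 3 at Klf5, 2 at Klf4 and 1 each at Nanog, Sox2, Klf2 and Tfcp2l1.

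The other control peaks around Pou5f1 were separate from its own peak and lay on the side of higher coordinates, the nearest 3705 bp beyond the gene. Tcf19, a cell cycle gene 1953 bp beyond Pou5f1, had 0 bp with EPZ5676 and 1796 bp in control cells, and the other 3 control peaks of the window lay in Cchcr1. H2-Q10, the neighbour on the other side, had no peak in either list. At Klf4 the second control peak (2243 bp, fold 2.45) lay 2109 bp upstream of the gene, inside the lncRNA gene Gm12506.

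Of the 20 protein-coding neighbours of the 10 genes, 8 had an EPZ5676 peak and 14 a control peak, beside 12.3% and 52.7% of all protein-coding genes with an EPZ5676 and a control peak. The 8 with an EPZ5676 peak were long, from 42196 bp (Rad23b) to 419711 bp (Klf12), against a median protein-coding gene of 17.2 kb. The difference from all genes was not tested, nor was it adjusted for gene length. Eps15l1, an endocytosis gene 19.3 kb from Klf2, had 3553 bp with EPZ5676 and 25515 bp in control cells. Clasp1, a microtubule gene 18.5 kb from Tfcp2l1, had 1990 bp with EPZ5676 and 65809 bp in control cells. Rad23b, a DNA repair gene 134.9 kb from Klf4, had 1111 bp with EPZ5676 and 33383 bp in control cells. Atp11b, the next gene 1101.6 kb from Sox2, had 1819 bp with EPZ5676 and 31886 bp in control cells.

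Shorter residual coverage was found at Slco5a1 near Prdm14, Ncoa2 near Prdm14, Gli2 near Tfcp2l1 and Klf12 near Klf5, with 392, 256, 250 and 156 bp with EPZ5676. Near here means only the next protein-coding gene on either side, whatever its distance, which was 1207.5 kb for Actl7b from Klf4. In control cells Ncoa2 had 135326 bp, Klf12 4500 bp and Gli2 710 bp, and Slco5a1 had none. The neighbours with a control peak only were Pibf1 near Klf5 (9109 bp in control cells), Ap1m1 near Klf2 (7231 bp), Gpatch2l and Vash1 on the sides of Esrrb (14219 and 3330 bp), Slc2a3 near Nanog (2182 bp), Triml2 near Zfp42 (1062 bp), and Tcf19. Dppa3 near Nanog, Dnajc19 near Sox2, Actl7b near Klf4 and Adam26b near Zfp42 had no peak in either list, and neither had H2-Q10.

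Around the annotated starts of protein-coding genes, EPZ5676 coverage was highest 3550 bp downstream, where 1.49% of starts had a peak, and control coverage was highest 1450 bp downstream, at 43.8%. Control coverage dipped at the start itself: a peak lay over 0.0517% of starts in the EPZ5676 list and 8.73% in the control list. A peak lay within 1 kb of 0.851% of starts in the EPZ5676 list and of 45.9% in the control list. Of the starts of control-marked genes, 15.5% lay under a control peak and 80.5% within 1 kb of one. Among the 5 marked factor genes with a known start, Pou5f1 lay under a peak, Klf4 and Sox2 lay within 1 kb, and Klf2 and Tfcp2l1 did not. The control peaks of Pou5f1, Klf4 and Tfcp2l1 spanned the position 1450 bp downstream, whereas that of Sox2 ended at 1427 bp and that of Klf2 began at 1612 bp.

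**Figure D2:**
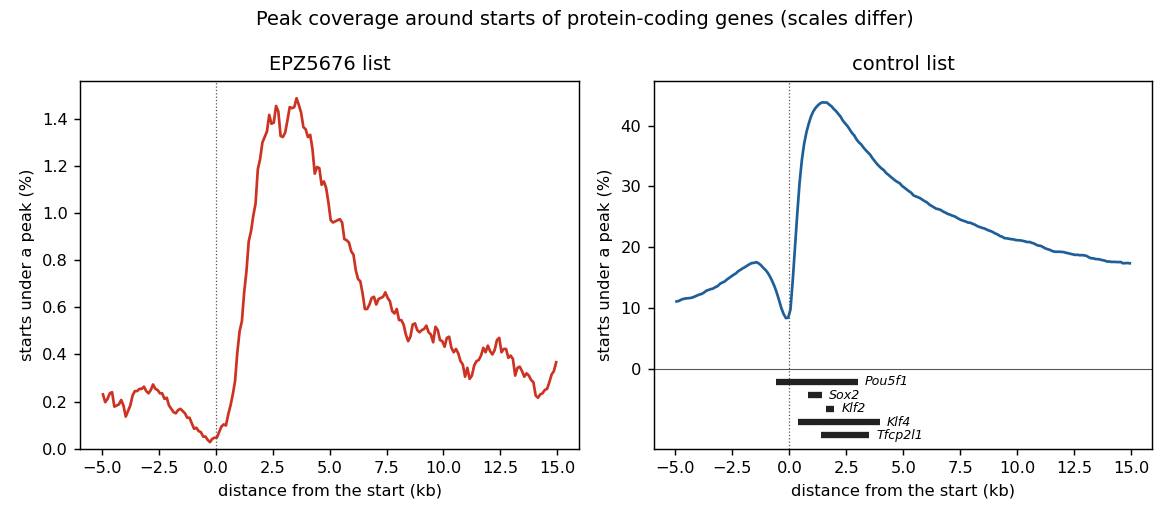
Percentage of 21262 annotated starts of protein-coding genes under a peak, by distance from the start in kb, for the EPZ5676 list (left) and the control list (right), on different scales. Black bars under the control curve show the control peaks of Pou5f1, Sox2, Klf2, Klf4 and Tfcp2l1, which, apart from that of Pou5f1, begin after the start.

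The lists differ in the weakest peak they contain. The lowest deposited −log10 p was 4.03 in the EPZ5676 list and 2.36 in the control list, so a peak as weak as many of the control peaks would not be found in the EPZ5676 list. Of the 8 control peaks over factor genes, 3 reached 4.03, or 37.5%, as did 37.5% of all control peaks. These were the peaks of Klf4 (15.8), Pou5f1 (7.30) and the strongest of Klf5 (4.78). The peaks of Sox2, Klf2 and Tfcp2l1 and the other 2 of Klf5 lay below it. For these 5, the empty EPZ5676 list therefore does not tell a loss of the mark from a mark of the same strength. With the control list held to the same floor, 0 of 10 factor genes had an EPZ5676 peak and 3 of 10 a control peak, where 44.7% of all protein-coding genes had a control peak. With −log10 q of at least 2, 4 of 10 factor genes had a control peak, against 48.4% of all genes, and with at least 5 it was 2 of 10, against 32.8%. Where 500 bp or more had to lie under peaks, 0 of 10 were left with EPZ5676 (7.77% of all genes) and 5 of 10 in control cells (50.6%).

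**Figure D3:**
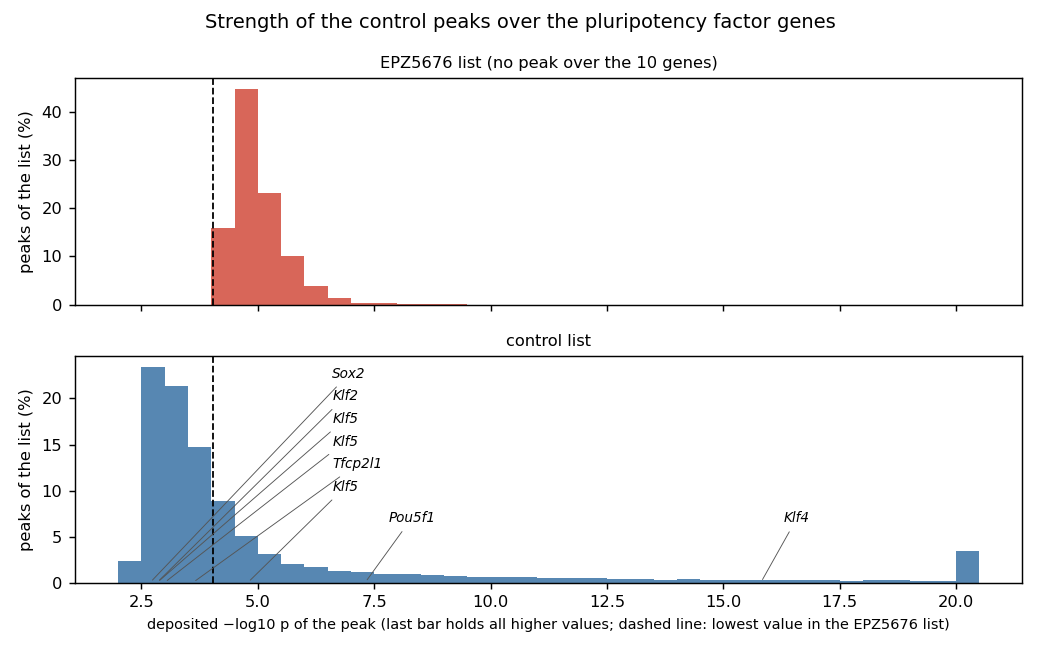
Percentage of peaks by deposited −log10 p for the EPZ5676 list (top) and the control list (bottom), with the lowest EPZ5676 value, 4.03, as a dashed line. The control peaks over the factor genes are pointed out, and 5 of the 8 lie to the left of the line.

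The CG content of the starts was counted for the factor genes found in the promoter table. In the 300 bases from 250 before to 50 after the start, CG dinucleotides numbered 40 at Klf4, 32 at Klf2, 27 at Sox2, 21 at Tfcp2l1 and, at the pair of Pou5f1 starts, 11 and 6. Among the genes without a control peak they numbered 11 at Zfp42, 7 at both Esrrb starts and 4 at both Nanog starts, so Pou5f1 overlapped this range and the other 4 did not. Over all protein-coding genes, the median was 21 for 11956 starts of control-marked genes and 4 for 9306 starts of genes without a control peak. Of starts with 20 or more CG dinucleotides, 20.5% belonged to a gene with an EPZ5676 peak and 86.4% to one with a control peak. Of those with 0 to 4, 6.88% belonged to a gene with an EPZ5676 peak and 16.4% to one with a control peak. Klf5 and Prdm14 were not matched in the promoter table.

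**Figure D4:**
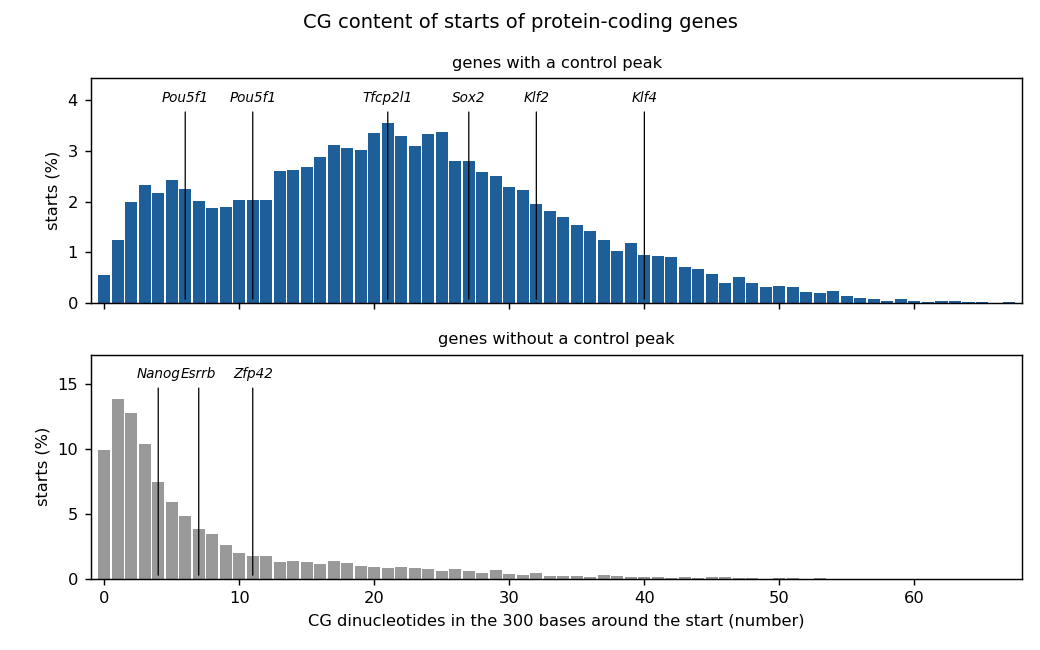
Percentage of starts by the number of CG dinucleotides in the 300 bases around the start, for genes with a control peak (top) and without one (bottom). The factor genes with a known start are marked by lines: Tfcp2l1, Sox2, Klf2 and Klf4 lie at 21 to 40, and Nanog, Esrrb and Zfp42 at 4 to 11. Pou5f1, which has a control peak, lies at 11 and 6, within the range of those without one.

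The octamer core ATGCAAA, the sequence read by POU factors such as POU5F1, was searched on both strands of the same 300 bases. Among the factor genes it was present at Sox2, Zfp42 and Nanog (a shared site in the overlapping windows of its 2 starts), and it was present in 4.23% of all protein-coding starts. These 3 stretches are shown because they include 1 gene with a control peak and 2 without; capitals mark the octamer core, which appears as its reverse complement TTTGCAT at Nanog and Zfp42.
Sox2, chr3:34649885-34649913, plus strand: cgccccctttcATGCAAAaccctctggcg
Nanog, chr6:122707403-122707431, plus strand: ttacagcttctTTTGCATtacaatgtcca
Zfp42, chr8:43307177-43307205, minus strand: ctgaagaggcaTTTGCATaactgagcaag
The core began 99 bases before the start at Sox2, 75 at Nanog and 185 at Zfp42. A GC box (GGGCGGG or CCCGCCC) was found at Klf2, Klf4, Pou5f1, Sox2 and Zfp42 and in 33.9% of all starts, and a TATA motif (TATAAA or TTTATA) at Tfcp2l1 and in 12.6% of all starts. A CCAAT box (CCAAT or ATTGG) was found at Esrrb, Pou5f1, Sox2 and Zfp42 and in 38.2% of all starts. These matches are letters in a window and were not measured as bound sites.

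Genes that feed signals into the network were set beside the 10 factor genes. For this list and those that follow, the background is the 12.3% of all protein-coding genes with an EPZ5676 peak and the 52.7% with a control peak. The lists differ in gene length, and their counts were not adjusted for it. Median length was 28.9 kb for the LIF and STAT3 genes, 21.3 kb for the Wnt and ERK genes and 9.54 kb for the factor genes. Of 8 genes of the LIF and STAT3 arm, 2 had an EPZ5676 peak and 8 a control peak. Jak1, the kinase at the receptor, had 924 bp with EPZ5676 and 70601 bp in control cells (its span overlaps another gene), and Il6st, the gp130 receptor chain, had 1420 bp with EPZ5676 and 12949 bp in control cells. Stat3 and Lifr, the factor and the LIF receptor, had 0 bp each with EPZ5676 and 29901 and 23112 bp in control cells.

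Of 10 genes of the Wnt and ERK arms, 3 had an EPZ5676 peak and 8 a control peak. Gsk3b, the kinase that marks beta-catenin for breakdown, had 1804 bp with EPZ5676 and 99989 bp in control cells, and Ctnnb1, the beta-catenin gene, had 2387 bp with EPZ5676 and 22015 bp in control cells. Tcf7l1, a repressor of pluripotency genes, had 2620 bp with EPZ5676 and 21700 bp in control cells, and Etv5, a GDNF-induced factor, had 0 bp with EPZ5676 and 37142 bp in control cells. Fgf4 and Lef1, named after their values were seen, had no peak in either list.

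Partner factors of the network came next. Of 19 partner factor genes, 1 had an EPZ5676 peak and 14 a control peak, with medians of 0 bp with EPZ5676 and 5387 bp in control cells. Nr5a2, a nuclear receptor that can stand in for POU5F1 in reprogramming, had 0 bp with EPZ5676 and 60639 bp in control cells, and Rest, a repressor of neural genes, had 0 bp with EPZ5676 and 19264 bp in control cells. Stat3 is also on this list. Zfp281, a zinc finger partner of NANOG, had 355 bp with EPZ5676 and 4982 bp in control cells. Myc, Nr0b1, Otx2 and Sox15, named after their values were seen, had no peak in either list.

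Of 25 target and marker genes, 2 had an EPZ5676 peak and 10 a control peak, and both medians were 0 bp. Lin28b, which blocks let-7 maturation, had 0 bp with EPZ5676 and 19812 bp in control cells, and its paralogue Lin28a had 0 bp with EPZ5676 and 13755 bp in control cells. Tet2, a demethylase gene, had 1413 bp with EPZ5676 and 11124 bp in control cells, and Jam2 only an EPZ5676 peak, of 168 bp. The list contains Nanog's neighbour Dppa3, which had no peak.

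Of 10 genes found for the primordial germ cell programme (Tbxt was not matched), 1 had an EPZ5676 peak and 6 a control peak. Mael, a piRNA pathway gene, Kit, a receptor gene, and Ddx4, a germ cell helicase gene, each had 0 bp with EPZ5676, and 24308, 23890 and 12617 bp in control cells. Prdm1, which starts the programme with Prdm14, had only an EPZ5676 peak, of 222 bp, while Prdm14 had none in either list.

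The factor genes also have relatives in the same families. Median gene length was 11.4 kb for the KLF, 4.79 kb for the SOX and 6.27 kb for the POU genes. It was 50.7 kb for the relatives of Esrrb, Tfcp2l1, Prdm14 and Zfp42. These counts too were not adjusted for length, and the background stays 12.3% with an EPZ5676 peak and 52.7% with a control peak. Of 17 KLF genes, 4 had an EPZ5676 peak and 14 a control peak. Klf7 had 2871 bp with EPZ5676 and 78533 bp in control cells, and Klf13 had 2113 bp with EPZ5676 and 49195 bp in control cells. Klf9 had 485 bp with EPZ5676 and 23587 bp in control cells, and Klf12 had 156 bp with EPZ5676 and 4500 bp in control cells. Klf8, a gene of the X chromosome, had 0 bp with EPZ5676 and 31275 bp in control cells. The family median was 0 bp with EPZ5676 and 4500 bp in control cells, so Klf5 lay above it and Klf4 and Klf2 below. Klf13 overlaps another protein-coding gene.

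Of 20 SOX genes, 2 had an EPZ5676 peak and 7 a control peak. Sox13, Sox4 and Sox11 had 0 bp each with EPZ5676 and 31755, 4614 and 3183 bp in control cells, more than Sox2 with 617 bp. Sox5 and Sox6, long genes of cartilage and neural development, had only EPZ5676 peaks, over 877 and 1558 bp.

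Of 15 POU genes, 3 had an EPZ5676 peak and 5 a control peak. Pou2f1, the widely expressed OCT1 gene, had 2693 bp with EPZ5676 and 83492 bp in control cells, although its span overlaps another gene. Pou2f2, and Pou3f1, a factor known from undifferentiated spermatogonia, had 0 bp each with EPZ5676, and 22350 and 2192 bp in control cells. Pou2f3 had only an EPZ5676 peak, of 259 bp.

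Of 26 relatives of Esrrb, Tfcp2l1, Prdm14 and Zfp42, those 4 included, 5 had an EPZ5676 peak and 16 a control peak. Prdm2 had 4289 bp with EPZ5676 and 74023 bp in control cells. For Prdm16 the coverage was 552 bp with EPZ5676 and 138860 bp in control cells. Prdm8 and Prdm1 had only EPZ5676 peaks, of 1191 and 222 bp.

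**Figure D5:**
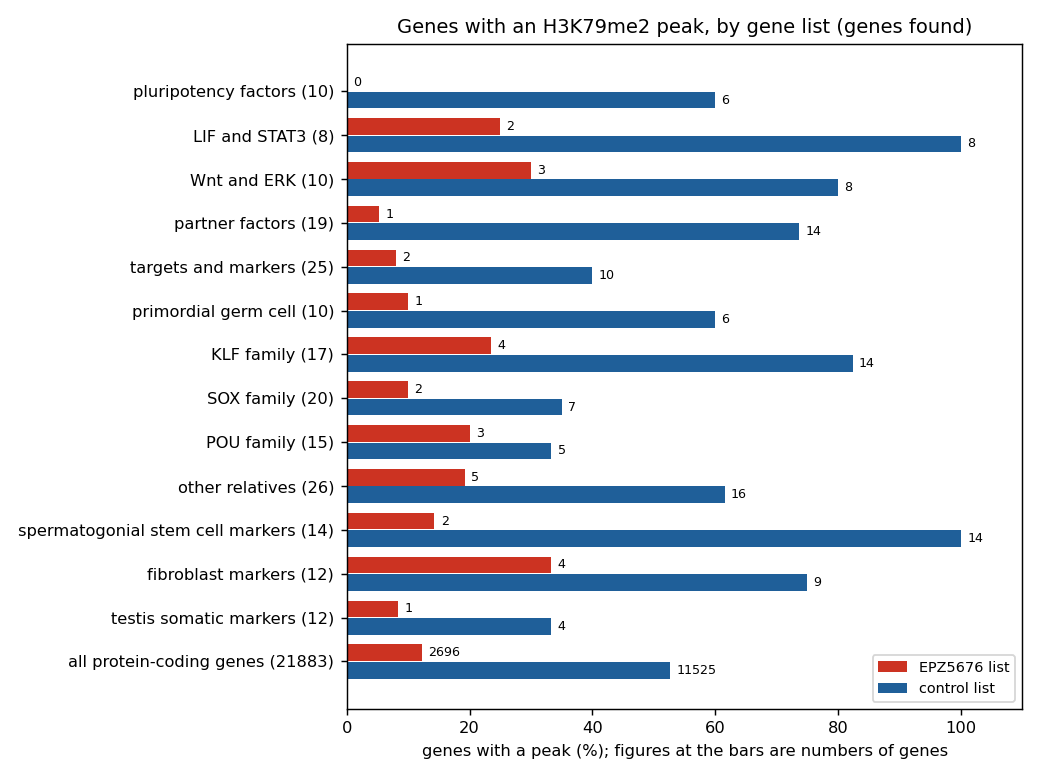
Percentage of genes with an EPZ5676 peak (red, upper bar) or a control peak (blue, lower bar) in each list, with the number of genes found in brackets and the numbers with a peak at the bars. The pluripotency factor genes have 0 of 10 with EPZ5676 and 6 of 10 in control cells, beside 2696 and 11525 of 21883 protein-coding genes.

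Markers of other cells were covered too. Of 12 fibroblast genes, which the feeder cells could carry, 4 had an EPZ5676 peak and 9 a control peak, over 8872 bp in all with EPZ5676 and 55390 bp in control cells. Twist2 had 2907 bp with EPZ5676 and 12557 bp in control cells, and Prrx1 had 3583 bp with EPZ5676 and 11779 bp in control cells. Fbn1 had 2141 bp with EPZ5676 and 10333 bp in control cells, and Sparc had 241 bp with EPZ5676 and 5565 bp in control cells. Col1a2, Col3a1 and Vim, named after their values were seen, had no peak in either list. Thy1 is on both the fibroblast and the spermatogonial list. Of 12 testis somatic genes, 1 (Fshr, 179 bp) had an EPZ5676 peak and 4 a control peak, led by Wt1 (9155 bp), Nr2f2 (2343 bp) and Inha (795 bp), over 179 bp in all with EPZ5676 and 12618 bp in control cells. The spermatogonial genes had 2330 bp with EPZ5676 and 464223 bp in control cells. They were led by Zbtb16 (168701 bp) and Gfra1 (96347 bp), both overlapping another gene and without an EPZ5676 peak, and Foxo1 (1568 bp with EPZ5676 and 78994 bp in control cells), while Itga6 had 762 bp with EPZ5676 and 30963 bp in control cells. Klf4 and Klf5 are also active in cells other than germ cells, and the part of feeder cells in the control peaks of the factor genes was not tested. Since a culture can hold several cell types, fewer cells of a type and less of the mark per cell cannot be told apart.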

How the data were processed

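Per the labels' protocols, chromatin was fixed with 1% formaldehyde for 10 min and precipitated with an H3K79me2 antibody. The build was mm10 and the tools included deepTools, Trimmomatic and bcl2fastq 2.20.0.422, per the submitters' processing notes. Neither aligner nor peak caller is given in the sources used here. Each peak list has 9 columns and no header. The deposited score of a peak is 10 times its −log10 q-value without decimals, in all but 4 control peaks, the deposited fold enrichment is a ratio of signal to background, and the p-value and q-value of each peak were deposited as −log10 p and −log10 q. All are the authors' values and served to describe, rank and filter peaks within a list. No column was left unmapped (0 columns).

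Gene spans were taken from RefSeq (GRCm38.p6), and starts, strands and sequences from the RefSeq promoter table, which matched 8 of the 10 genes with 11 starts. Covered bases, peaks and distances were computed with Python 3.11.15, numpy 2.4.6 and pandas 2.3.3 and tested on simulated intervals. Depth is unknown and limits what an absent peak shows. The members, lists (179 different genes) and motifs were chosen with earlier results of these data known. The text names all 10 members, their nearest protein-coding neighbours, the 3 genes of each list with the longest control coverage, every listed gene with an EPZ5676 peak, and the 3 genes nearest in length and coverage to Klf5 and Klf4, except that some listed genes are not reported here. Alternatives changed the peak filter, the span and the covered length required.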

Additional observations from a re-analysis of the deposited data

How the results depend on the processing

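The count of 0 of 10 genes with an EPZ5676 peak was unchanged under each of the 9 alternatives tried. These were filters on q, p, width and covered length, spans widened by 5 and 20 kb, and leaving out genes that overlap others. Filters and leaving out genes could only keep the count at 0, so only the widened spans could have changed it. For the starts, the only settings were a peak over the start and a peak within 1 kb, and both gave 0 of 8 with EPZ5676. The count of 6 genes with a control peak was 3 at the p floor of the EPZ5676 list and, in an alternative chosen after seeing the data, 2 with −log10 q of at least 5. It was 4 with −log10 q of at least 2 or peaks of at least 1000 bp, 5 with at least 500 bp covered and 6 with either widened span. Leaving out the genes that overlap a non-coding gene, also chosen after seeing the data, gave 4 of 7. For the width filter, the widened spans and the left-out genes, no share over all protein-coding genes was computed. Those counts therefore cannot be set beside a background. The number of starts in a control peak was 1 of 8 and, within 1 kb, 3 of 8.

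Control coverage of Sox2 and Klf2 was 0 bp under each of the filters on q, p and width, and that of Tfcp2l1 was 0 bp at the p floor and at −log10 q of at least 5. Klf5 had 2219 bp at the p floor and at −log10 q of at least 2, 4580 bp with peaks of at least 1000 bp, and 0 bp at −log10 q of at least 5. Pou5f1 had 4883 bp with 5 kb and 9298 bp with 20 kb added on each side, and Klf4 5851 bp with either. No paired analysis was possible because each condition has 1 peak list, and for the same reason no replicate could be left out.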

Other observations

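Among the wider lists, several genes had an EPZ5676 peak and no control peak, and those given here were longer than the median protein-coding gene of 17.2 kb. They were Sox5 (953863 bp long), Sox6 (569905 bp), Fshr (215724 bp), Prdm1 (91385 bp), Pou2f3 (81829 bp), Jam2 (52258 bp) and Prdm8 (20252 bp), with 168 bp (Jam2) to 1558 bp (Sox6) covered with EPZ5676.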
